A study of Mus musculus with 26 samples.

Results

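The genes described here are 38 genes of fatty acid uptake and mitochondrial fatty acid oxidation. They are enzymes, carriers and regulators that bring fatty acids into the heart muscle cell and break them down. They were chosen by name, with earlier results of these data known. Each of the 38 names matched 1 row of the count table, which lists 56941 genes, and all 38 were among the 15357 genes abundant enough to be tested. They were measured by poly-A RNA sequencing of left ventricle from 26 mice with floxed alleles of Ppp2r2a, the gene for the B55α regulatory subunit of protein phosphatase 2A. The study asked whether this subunit regulates the cardiac transcriptome differently in the sexes. Knockout mice (cKO, aMHC-CreTg/0-Ppp2r2aL/L) carried a Cre transgene under the aMHC promoter, which is active in cardiomyocytes. Control mice (Ctrl, aMHC-Cre0/0-Ppp2r2aL/L) had the same floxed alleles without the transgene. Each sex was represented by 6 Ctrl and 7 cKO mice, with 1 library per mouse. All were 12 to 16 weeks old and had received saline from an osmotic minipump for 2 weeks. The floxed line was made on C57BL6/N and the transgene on FVB, so effects of the deletion, of Cre and of FVB sequence near the transgene cannot be told apart. Cre-only mice were not analysed here.

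The adult heart draws most of its energy from long-chain fatty acids. Lipoprotein lipase releases them from circulating triglyceride, CD36 and other carriers take them across the membrane, and acyl-CoA synthetases and the carnitine shuttle move them into the mitochondrion. There each round of beta-oxidation shortens the chain by an acyl-CoA dehydrogenase step, a hydration, a second oxidation and a thiolysis, and electron transfer flavoprotein passes the electrons on to the respiratory chain. Many of these genes are known targets of the nuclear receptors PPARα and ERRα, and the pathway is known to be turned down in the failing heart.

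Total counts ran from 14403102 to 30867399 per library, and the cKO females were the shallowest (14403102 to 21594470). Levels are given as CPM, counts scaled to the library total with TMM factors. Ppp2r2a itself was at 24.1 to 47.7 CPM in Ctrl males, 11.8 to 16.2 CPM in cKO males, 36.2 to 46.7 CPM in Ctrl females and 9.96 to 16.2 CPM in cKO females (lowest to highest mouse), so the genotypes did not overlap in either sex. Of the male controls, mice 3 and 6 had the lowest Ppp2r2a, and a count that moves without both is given with its second value. Markers of cardiomyocytes were abundant in every library, and none of those searched was at 0.

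The 38 genes together took 2.28% to 2.44% of a library's counts in Ctrl males and 2.06% to 2.26% in cKO males. In females the shares were 2.32% to 2.56% in Ctrl and 2.21% to 2.49% in cKO. The male genotypes did not overlap in this share, and the female genotypes did. In bulk tissue, fewer cells of a type and less RNA per cell cannot be told apart. Per kilobase of transcript, Fabp3, the fatty acid binding protein of heart muscle, was the most abundant gene at 3712 CPM per kb (mean of the 4 group means), and Acad10, a little studied dehydrogenase, the least at 1.61 CPM per kb. Within the dehydrogenases Acadm, which handles medium chains, was highest at 522 CPM per kb. The muscle carnitine palmitoyltransferase Cpt1b was at 25.5 CPM per kb in Ctrl males and the liver form Cpt1a at 9.07 CPM per kb. The level of Cpt1b is uncertain, because 93% of the 50-base windows of its transcript are shared with the gene Gm44502. The ratio of the 2 forms can therefore not be read from these values.

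**Figure D1:**
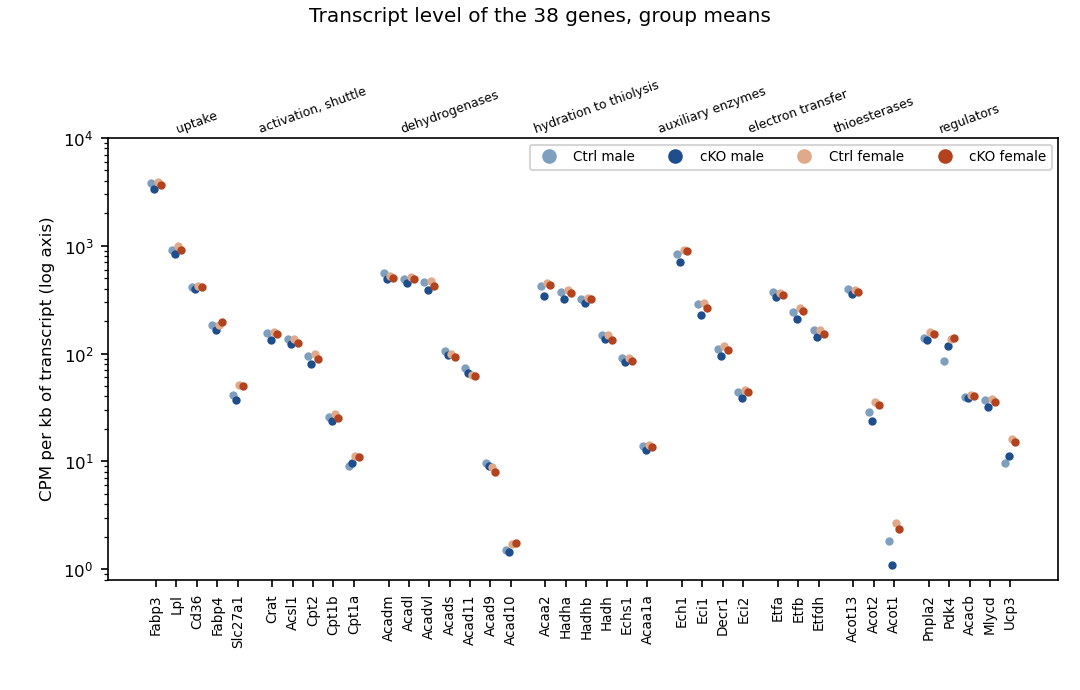
Mean level of each of the 38 genes in the 4 groups, in CPM per kb of the longest annotated transcript (log axis), ordered within 8 roles. Each dot is 1 group mean. Levels run from Acad10 near 1.61 CPM per kb to Fabp3 near 3712 CPM per kb, and the dots of a gene lie close together beside that range.

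In cKO males the set lay below the control level almost as a whole. The log2 fold change of cKO against Ctrl was below 0 in 35 of 38 genes (49.7% of all genes tested), with a median of -0.16 beside 0.0010 over all genes. By edgeR's quasi-likelihood test, 3 genes fell past an adjusted p of 0.05 (Benjamini-Hochberg over all genes tested): Eci1, Acadvl and Acaa2. That is 7.89% of the 38, where 0.26% of all genes tested were called lower. At an unadjusted p under 0.05, 22 of the 38 were lower and none higher, beside 7.09% of all genes lower. In 4 genes (Acadvl, Acaa2, Etfb and Etfdh) every cKO male was below every Ctrl male, which held for 0.873% of all genes. The 3 genes with a value above 0 were Pdk4, Ucp3 and Cpt1a, none past the threshold. The 38 genes belong to 1 pathway and were measured in the same mice, so their shared sign is not 38 separate observations. Since they were chosen with earlier results of these data known, their shares beside all genes, here and below, only describe the list.

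In cKO females most values were again below 0, and no gene passed the threshold. Here 35 of 38 log2 fold changes were below 0 (48.9% of all genes tested), with a median of -0.082 beside 0.0028 over all genes. None of the 38 was called by edgeR, DESeq2 or limma voom. Over the whole table, edgeR called 5 genes (0.0326%), DESeq2 9 and limma voom 4. At an unadjusted p under 0.05, edgeR found 3 lower (Eci1, Acadvl and Cpt2), beside 2.42% of all genes. Eci1 was the 1 gene whose female genotypes did not overlap, beside 0.0521% of all genes. Values below 0 in both sexes were found in 33 genes, and 1 gene, Pdk4, was above 0 in both. The size was larger in males than in females in 34 of 38 genes, beside 8999 of 15357 genes over the table.

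The difference between the sexes in the knockout effect was tested directly, since a call in 1 sex alone does not show it. No member passed, nor did any of the 15357 genes (0%), and DESeq2 and limma voom called none either. The smallest adjusted p among members was 0.999 (edgeR). At an unadjusted p under 0.05 there were 2 members, Acaa2 with a difference (female minus male) of 0.24 (95% interval 0.041 to 0.44, edgeR unadjusted p = 0.0185, adjusted p = 0.999) and Eci1 with 0.18 (95% interval 0.023 to 0.34, edgeR unadjusted p = 0.0248, adjusted p = 0.999), beside 2.04% of all genes past that p with a positive difference. Averaged over both sexes, 5 genes were called, all lower: Eci1, Acadvl, Acaa2, Etfb and Etfdh. That is 13.2% of the 38 beside 0.866% of all genes, and 35 of 38 had a mean effect below 0 (48.4% of all genes). Without Ctrl males 3 and 6 the male count stayed at 3 and the mean effect called 8, all lower. Over the whole table, that fit called 7 genes in males (6 lower) in place of 68. For the mean effect it called 249 (175 lower) in place of 205.

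**Figure D2:**
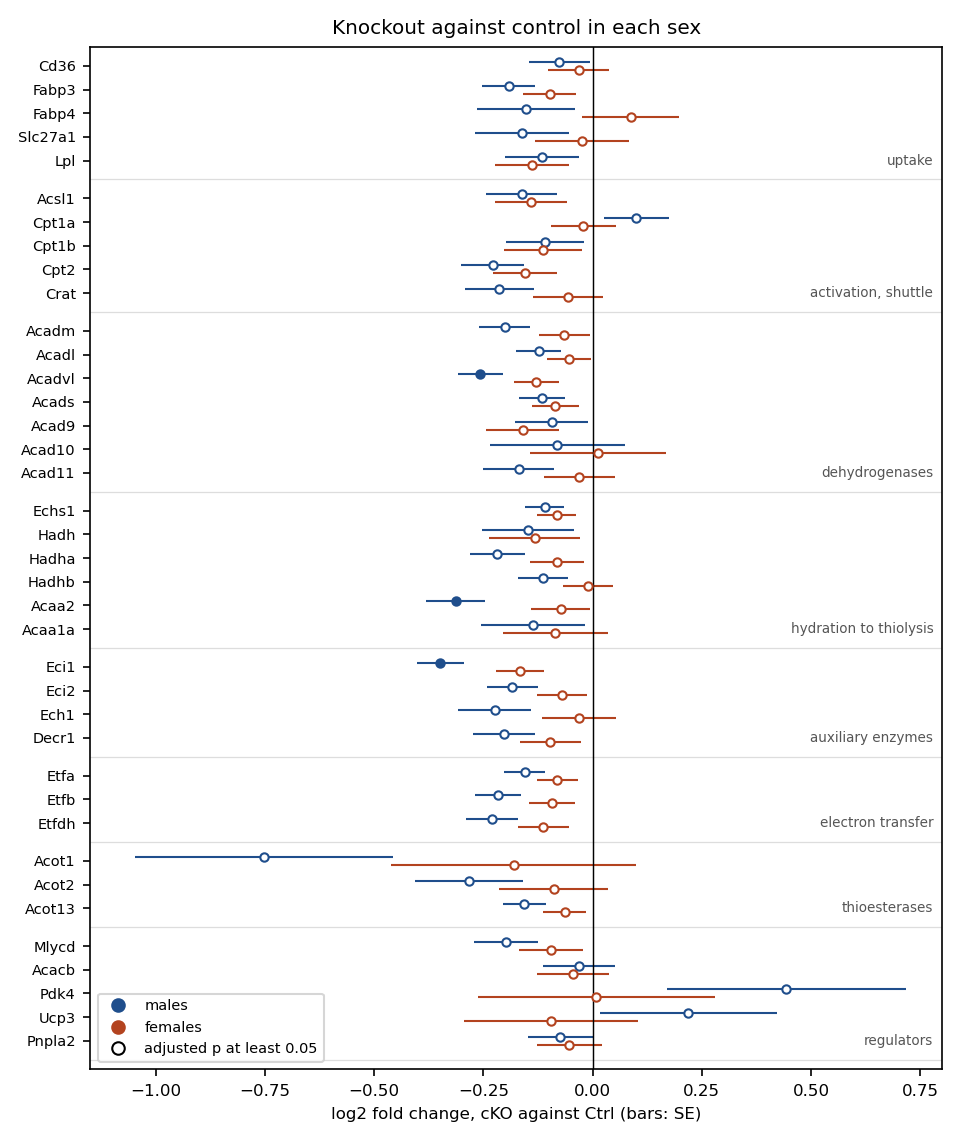
Log2 fold change of cKO against Ctrl for each of the 38 genes in males (blue) and females (red), with SE bars; filled points have an adjusted p under 0.05. The filled points are Eci1, Acadvl and Acaa2 in males, and 35 of 38 points lie left of 0 in each sex.

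**Figure D3:**
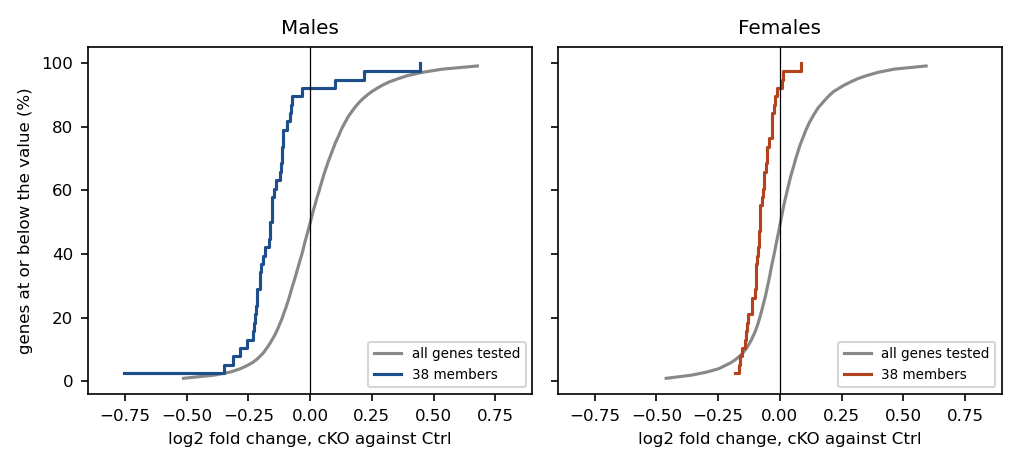
Cumulative share of genes (%) at or below each log2 fold change of cKO against Ctrl, for the 38 members (coloured steps) and all genes tested (grey, drawn from its 1st to 99th percentile), in males and females. The members' curve crosses 50% at a median of -0.16 in males and -0.082 in females, and the curve of all genes at about 0.

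Most marker genes of heart muscle also had values below 0. Of 10 cardiomyocyte markers, 8 had a log2 fold change below 0 in males and 10 in females. Tnni3 (log2 -0.24, adjusted p = 0.0316 by edgeR, SE 0.051) and Myl3 (log2 -0.20, adjusted p = 0.0374 by edgeR, SE 0.045), both sarcomere proteins, fell in males, and none was called in females. Their summed level was 85942 to 93363 CPM in Ctrl males and 74955 to 88073 CPM in cKO males, and 84499 to 98955 and 79759 to 93426 CPM in Ctrl and cKO females (lowest to highest mouse). None of the 10 was at 0 in any group. The summed level of 10 capillary endothelial markers was 1096 to 1452 CPM in Ctrl males and 1045 to 1319 CPM in cKO males, with 5 of 10 lower and none called. Of 6 fibroblast markers, 5 were above 0 in males and 6 in females, with none called by edgeR. At an unadjusted p under 0.05 there was 1 in males, the collagen gene Col1a1 (log2 0.52, adjusted p = 0.0553 by edgeR, SE 0.12), named after its value was seen, and none in females. No marker of macrophages, of smooth muscle cells and pericytes or of red blood cells was called in either sex. The part of the heart muscle markers in the lower levels of the 38 genes was not tested.

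The acyl-CoA dehydrogenases, which open each round of the cycle, held 1 called gene. Acadvl (ENSMUSG00000018574), the dehydrogenase that starts the oxidation of very long and long chains, was at 870.0 to 1136 CPM (median 1009) in Ctrl males and 771 to 869 CPM (median 848) in cKO males. Every cKO male was below every Ctrl male, by a narrow gap. The log2 fold change was -0.26 (adjusted p = 0.0272 by edgeR, SE 0.052), so that Acadvl fell by 16.3%. In females the values were 943 to 1082 CPM (median 1018) in Ctrl and 831 to 982 CPM (median 918) in cKO, with a log2 fold change of -0.13 (adjusted p = 0.932 by edgeR, SE 0.052). The ranges overlapped, and all 7 cKO females were below the Ctrl mean. The mean effect over both sexes was -0.19 (adjusted p = 0.00965 by edgeR, SE 0.037). The male call was lost in 7 of 36 other settings or leave-1-out fits, among them those without Ctrl male 4 or 5 or without cKO male 2, 5 or 6 (adjusted p 0.0522 to 0.0991 over these 5 fits), while the mean effect was called in all 35.

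The sequence upstream of Acadvl is shown because it is the called dehydrogenase and the members were searched for shared promoter elements. These are the 250 bases before its start in RefSeq (GRCm38.p6, chr11:70015429-70015678, minus strand), 5′ to 3′, with matches to a searched motif in capitals, of which there were none.
Acadvl: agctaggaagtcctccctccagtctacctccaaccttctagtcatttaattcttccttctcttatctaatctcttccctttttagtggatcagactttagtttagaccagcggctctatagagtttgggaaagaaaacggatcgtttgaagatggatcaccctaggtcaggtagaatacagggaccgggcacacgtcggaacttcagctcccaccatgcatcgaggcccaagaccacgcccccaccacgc
It overlaps no annotated exon. Reads of Acadvl are uncertain in part, because 24% of its 50-base windows also lie, on the opposite strand, in transcripts of the neighbouring gene Dvl2, and whether strand was used in counting is not given in the sources used here. Dvl2 itself had 99 to 257 counts per library.

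The other dehydrogenases were not called. Acadm was at 1152 ± 78.5 CPM (SD, n = 6) in Ctrl males and 1002 ± 66.4 CPM (SD, n = 7) in cKO males, with a log2 fold change of -0.20 (adjusted p = 0.0959 by edgeR, SE 0.058). The females had 1084 ± 84.0 CPM (SD, n = 6) in Ctrl and 1037 ± 77.8 CPM (SD, n = 7) in cKO, with -0.065 (adjusted p = 0.975 by edgeR, SE 0.058). All 7 cKO males and 5 of 7 cKO females lay below their control mean. Acadl, Acads, Acad9, Acad10 and Acad11 had male log2 fold changes from -0.17 (Acad11, which acts on unusual very long chains) to -0.080 (Acad10), and female ones from -0.16 (Acad9, also an assembly factor of respiratory complex I) to 0.013 (Acad10). Of all 7 dehydrogenases, 7 were below 0 in males and 6 in females, and 1 was called.

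Electron transfer flavoprotein takes the electrons from these dehydrogenases and hands them to ubiquinone through Etfdh. Its beta subunit Etfb (ENSMUSG00000004610) was at 200.5 to 239.9 CPM (median 219) in Ctrl males and 173 to 197 CPM (median 192) in cKO males. The male genotypes did not overlap. The male log2 fold change of -0.22 (adjusted p = 0.0506 by edgeR, SE 0.052) missed the threshold narrowly, while DESeq2 (adjusted p = 0.0042), limma voom (0.0372) and edgeR with a filter of at least 5 CPM on average (0.0348) called it. Female values were 212 to 259.9 CPM (median 242) in Ctrl and 203 to 235 CPM (median 226) in cKO, which overlapped, with -0.093 (adjusted p = 0.948 by edgeR, SE 0.052). The mean effect was -0.15 (adjusted p = 0.0308 by edgeR, SE 0.037), a call that was lost in 10 of 35 other fits. Among these were the fits without Ctrl male 1 or 5, cKO male 1 or 2, Ctrl female 1, 4 or 5, or cKO female 1 or 5 (adjusted p 0.0515 to 0.0692).

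The oxidoreductase Etfdh (ENSMUSG00000027809) was at 575 to 679 CPM (median 622) in Ctrl males and 455 to 573 CPM (median 539) in cKO males. Here too the male genotypes were separate, by a gap that is small beside their ranges, with a log2 fold change of -0.23 (adjusted p = 0.0637 by edgeR, SE 0.059). DESeq2 (adjusted p = 0.00968) and the CPM filter (0.0426) called it. In females it was at 541 to 643 CPM (median 633) in Ctrl and 496 to 608 CPM (median 567) in cKO, with -0.11 (adjusted p = 0.948 by edgeR, SE 0.059). The mean effect was -0.17 (adjusted p = 0.0355 by edgeR, SE 0.042), a call that was lost in 15 of 35 other fits. Among these were the fits without Ctrl male 1, 2 or 5, cKO male 2, 3 or 6, Ctrl female 1, 3, 4 or 5, or cKO female 1 or 5 (adjusted p 0.0515 to 0.0732). The alpha subunit Etfa had -0.16 (adjusted p = 0.112 by edgeR, SE 0.047) in males and -0.081 (adjusted p = 0.951 by edgeR, SE 0.047) in females. All 3 genes of this step had all 7 cKO mice of each sex below the control mean.

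The upstream window of Etfb is shown because it holds 2 copies of the CCAAT box, the element searched that was most frequent in the set. The 250 bases before its RefSeq start (GRCm38.p6, chr7:43443822-43444071, plus strand) read 5′ to 3′ as follows, with the motif on the opposite strand (ATTGG) in capitals.
Etfb: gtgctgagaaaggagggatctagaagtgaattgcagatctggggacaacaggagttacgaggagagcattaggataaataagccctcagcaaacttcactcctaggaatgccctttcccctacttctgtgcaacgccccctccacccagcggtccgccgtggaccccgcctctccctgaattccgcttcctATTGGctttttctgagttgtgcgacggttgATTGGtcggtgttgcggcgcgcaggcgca
The window overlaps no annotated exon, and the matches begin at positions -59 and -29 relative to the start. Of the transcript of Etfb, 67.3% of the 50-base windows are shared on the same strand with the annotated gene Gm45233. The count table lists no gene of that name, and whether the overlap affected the counts of Etfb was not tested.

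The hydration, second oxidation and thiolysis steps were led by Acaa2 (ENSMUSG00000036880), the thiolase that cuts off acetyl-CoA in the last step. It was at 577 to 735 CPM (median 625.3) in Ctrl males and 467 to 574 CPM (median 533) in cKO males. The male genotypes did not overlap, with a log2 fold change of -0.31 (adjusted p = 0.0316 by edgeR, SE 0.068). Female levels were 602 to 734 CPM (median 686) in Ctrl and 593 to 709 CPM (median 619) in cKO. They overlapped, 4 of 7 cKO females lay below the Ctrl mean, and the log2 fold change was -0.073 (adjusted p = 0.975 by edgeR, SE 0.068). The mean effect was -0.19 (adjusted p = 0.0382 by edgeR, SE 0.048). The male call was lost in 12 of 36 other fits, among them those without Ctrl male 1, 2, 4 or 5 or cKO male 1, 2, 5, 6 or 7 (adjusted p 0.0509 to 0.123). The call of the mean effect was lost in 17 of 35, among them those without Ctrl male 1, 2 or 5, cKO male 2, 6 or 7, Ctrl female 1, 2, 3, 4 or 5, or cKO female 1, 5 or 7 (adjusted p 0.0501 to 0.0823).

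Echs1, the short-chain enoyl-CoA hydratase, was at 370.2 ± 15.5 CPM (SD, n = 6) in Ctrl males and 343 ± 15.4 CPM (SD, n = 7) in cKO males, with a log2 fold change of -0.11 (adjusted p = 0.269 by edgeR, SE 0.045). Ctrl and cKO females were at 370.2 ± 23.4 CPM and 349.8 ± 15.4 CPM (SD, n = 6 and 7), with -0.082 (adjusted p = 0.948 by edgeR, SE 0.045). All 14 cKO mice were below the control mean of their sex. Hadha and Hadhb, the subunits of the trifunctional protein that works on long chains, had male log2 fold changes of -0.22 (adjusted p = 0.095 by edgeR, SE 0.063) and -0.11 (adjusted p = 0.394 by edgeR, SE 0.057), and female ones of -0.082 and -0.011. Hadh and the peroxisomal thiolase Acaa1a had male values of -0.15 and -0.14. All 6 genes of these steps were below 0 in both sexes, and 1 was called in males.

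Auxiliary enzymes, which prepare unsaturated fatty acids for the cycle, included the gene with the smallest p of the set. Eci1 (ENSMUSG00000024132), the mitochondrial delta3,delta2-enoyl-CoA isomerase, was at 289.7 to 382 CPM (median 329) in Ctrl males and 238 to 295 CPM (median 249.9) in cKO males. All 7 cKO males lay below the Ctrl mean, and 1 of them, at 295 CPM, above the lowest Ctrl male. The log2 fold change was -0.35 (adjusted p = 0.00314 by edgeR, SE 0.054), so that Eci1 fell by 21.5%. In females Eci1 was at 319 to 353 CPM (median 333) in Ctrl and 286 to 308 CPM (median 299.6) in cKO. The female genotypes did not overlap, with a log2 fold change of -0.17 (adjusted p = 0.825 by edgeR, SE 0.054). The mean effect was -0.26 (adjusted p = 0.00114 by edgeR, SE 0.038). The calls in males and of the mean effect held in each of the 36 and 35 other fits.

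Ech1, the dienoyl-CoA isomerase, was at 904 to 1337 CPM (median 1029) in Ctrl males and 792 to 1104 CPM (median 835) in cKO males. The ranges overlapped, and Ctrl male 5 stood above all others; the log2 fold change was -0.22 (adjusted p = 0.224 by edgeR, SE 0.084). Without that mouse it was -0.15. In females Ech1 was at 1086 to 1377 CPM (median 1127) in Ctrl and 976 to 1278 CPM (median 1109) in cKO, with -0.032 (adjusted p = 0.997 by edgeR, SE 0.085). Without Ctrl female 5 the female value was 0.022 and had the other sign. Decr1, the dienoyl-CoA reductase, and Eci2 had male log2 fold changes of -0.20 (adjusted p = 0.172 by edgeR, SE 0.070) and -0.18 (adjusted p = 0.128 by edgeR, SE 0.058), and female ones of -0.097 and -0.070. All 4 auxiliary genes were below 0 in both sexes.

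**Figure D4:**
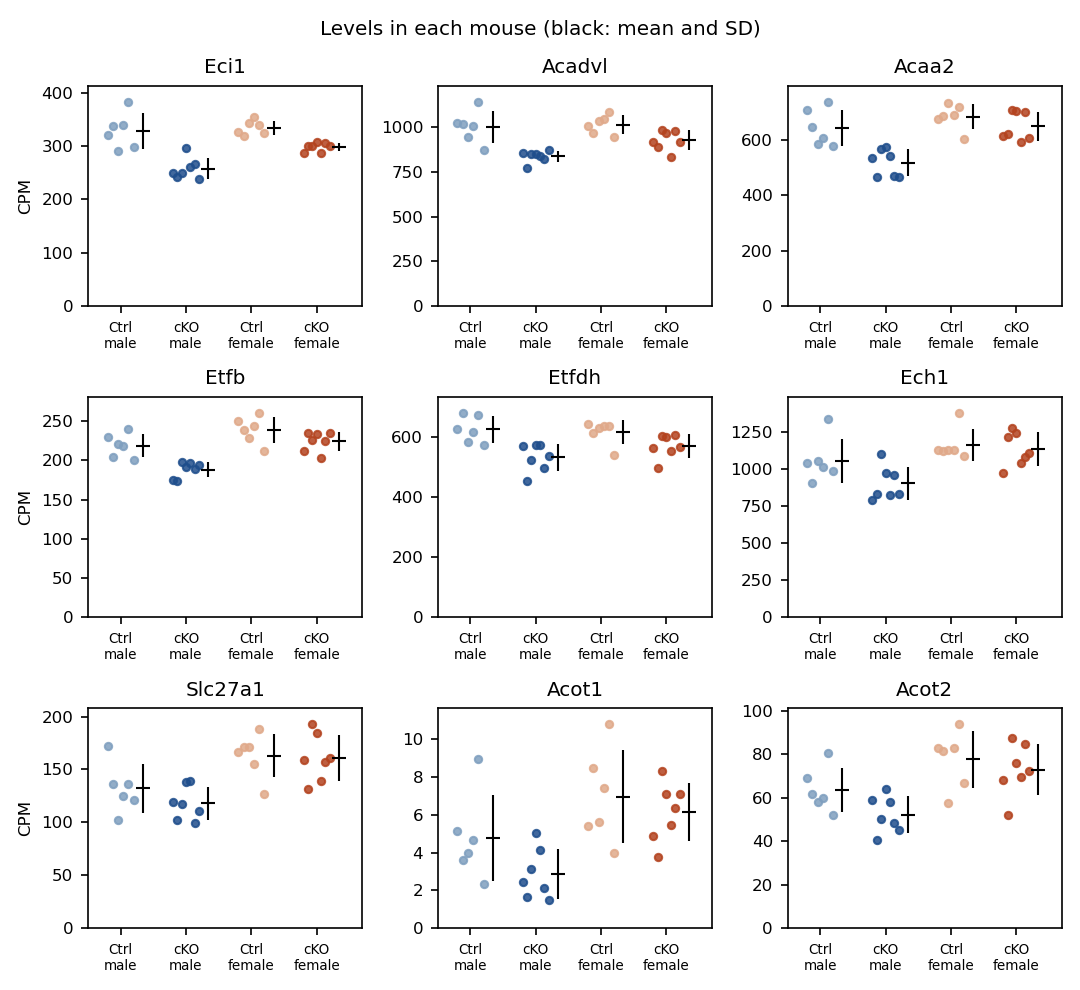
Level in each of the 26 mice (CPM, axes from 0) of the 9 genes called in any comparison, 1 dot per mouse, with the mean and SD in black. In males the Acadvl, Acaa2, Etfb and Etfdh dots of the 2 genotypes do not overlap, and for Eci1 1 cKO male reaches into the Ctrl range.

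For uptake and entry, the median log2 fold change in males was -0.15 over 5 uptake genes and -0.16 over 5 genes of activation and the carnitine shuttle. Fabp3 was at 3179 ± 308 CPM (SD, n = 6) in Ctrl males and 2783 ± 257 CPM (SD, n = 7) in cKO males, with a log2 fold change of -0.19 (adjusted p = 0.131 by edgeR, SE 0.061). Female levels of Fabp3 were 3235 ± 181 CPM and 3022 ± 139 CPM (SD, n = 6 and 7), with -0.099 (adjusted p = 0.963 by edgeR, SE 0.061). All 14 cKO mice lay below the control mean of their sex. Counts of Fabp3 may be shared with a copy, since 37.3% of its 50-base windows occur in other genes, chiefly the pseudogene Fabp3-ps1, which had 1070 to 2888 counts per library.

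Cd36, the main fatty acid translocase, was at 1420.2 ± 97.97 CPM (SD, n = 6) in Ctrl males and 1347 ± 66.2 CPM (SD, n = 7) in cKO males, and at 1451 ± 148 CPM and 1419 ± 173 CPM in Ctrl and cKO females. Its log2 fold changes were -0.076 (adjusted p = 0.706 by edgeR, SE 0.070) in males and -0.032 (adjusted p = 0.993 by edgeR, SE 0.070) in females, with 95% intervals of -0.22 to 0.069 and -0.18 to 0.11. Lpl, the lipoprotein lipase, had -0.12 (adjusted p = 0.596 by edgeR, SE 0.085) in males and -0.14 (adjusted p = 0.962 by edgeR, SE 0.085) in females, from levels of 3782 ± 596 CPM in Ctrl males, 3488 ± 249.6 CPM in cKO males, 4119.6 ± 405 CPM in Ctrl females and 3744 ± 414 CPM in cKO females (SD). Slc27a1, the fatty acid transport protein FATP1, had -0.16 (adjusted p = 0.549 by edgeR, SE 0.11) and -0.023 (adjusted p = 0.999 by edgeR, SE 0.11). None of these 3 passed the threshold. The 95% intervals above are those of Cd36 alone, and the SE of Lpl and of Slc27a1 was larger.

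Fabp4, the binding protein of endothelial and fat cells, had a value above 0 in females. It was at 781 ± 163 CPM and 703 ± 105 CPM in Ctrl and cKO males and at 782 ± 71.0 CPM and 831 ± 98.99 CPM in Ctrl and cKO females (SD, n = 6 or 7). The log2 fold changes were -0.15 (adjusted p = 0.599 by edgeR, SE 0.11) in males and 0.087 (adjusted p = 0.984 by edgeR, SE 0.11) in females. Fat cell markers were far lower than Fabp4, with a sum over 8 markers of 1.59 to 8.13 CPM in Ctrl males, 0.261 to 13.6 in cKO males, 4.57 to 17.5 in Ctrl females and 5.36 to 27.4 in cKO females (lowest to highest mouse).

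Activation and the carnitine shuttle held no called gene. Cpt2, which releases the acyl-CoA inside the mitochondrion, was at 223 ± 23.0 CPM (SD, n = 6) in Ctrl males and 190.2 ± 17.1 CPM (SD, n = 7) in cKO males, with a log2 fold change of -0.23 (adjusted p = 0.131 by edgeR, SE 0.073). In females it was at 237 ± 19.8 CPM and 213 ± 21.0 CPM (SD, n = 6 and 7), with -0.15 (adjusted p = 0.948 by edgeR, SE 0.073). Its mean effect of -0.19 (adjusted p = 0.0544 by edgeR, SE 0.051) was the closest to the threshold among members not called, with 7 of 7 cKO males and 6 of 7 cKO females below the control mean. Cpt1b, the gate of entry in muscle, was at 73.9 ± 5.82 CPM and 68.6 ± 9.20 CPM in Ctrl and cKO males and 79.5 ± 6.76 CPM and 73.5 ± 10.7 CPM in Ctrl and cKO females (SD, n = 6 or 7). The log2 fold changes of Cpt1b were -0.11 (adjusted p = 0.654 by edgeR, SE 0.089) and -0.11 (adjusted p = 0.975 by edgeR, SE 0.089), about equal in the sexes. Its level is uncertain, because 93% of its 50-base windows are shared with the read-through gene Gm44502, which had at most 1 count in any library.

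Acsl1, the main long-chain acyl-CoA synthetase of heart, had -0.16 (adjusted p = 0.395 by edgeR, SE 0.082) in males and -0.14 (adjusted p = 0.954 by edgeR, SE 0.082) in females. Crat, carnitine acetyltransferase, had -0.21 (adjusted p = 0.214 by edgeR, SE 0.079) and -0.056 (adjusted p = 0.985 by edgeR, SE 0.079). Cpt1a was the 1 shuttle gene above 0 in males, with 0.10 (adjusted p = 0.605 by edgeR, SE 0.074), beside -0.021 (adjusted p = 0.997 by edgeR, SE 0.074) in females. Of the 5 genes of this step, 4 were below 0 in males and 5 in females.

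The thioesterases, which hydrolyse acyl-CoA back to the free acid, held the gene with the lowest log2 fold change of the set. Acot1 was at 2.33 to 8.95 CPM (median 4.30) in Ctrl males and 1.47 to 5.03 CPM (median 2.43) in cKO males. The ranges overlapped widely, and 6 of 7 cKO males were below the Ctrl mean, for a log2 fold change of -0.75 (adjusted p = 0.251 by edgeR, SE 0.30). Without Ctrl male 5, the highest, it was -0.48. In females Acot1 was at 3.99 to 10.8 CPM (median 6.51) in Ctrl and 3.78 to 8.32 CPM (median 6.33) in cKO, with -0.18 (adjusted p = 0.987 by edgeR, SE 0.28). Its counts were the fewest of the 38, from 37 to 219 per library.

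Acot2, the mitochondrial form, was at 52.0 to 80.5 CPM (median 60.9) in Ctrl males and 40.6 to 63.9 CPM (median 50.02) in cKO males, with a log2 fold change of -0.28 (adjusted p = 0.316 by edgeR, SE 0.12). The ranges overlapped. In females it was at 57.4 to 93.8 CPM (median 82.3) in Ctrl and 52.1 to 87.5 CPM (median 72.5) in cKO, with -0.089 (adjusted p = 0.985 by edgeR, SE 0.12). Acot13, which acts on medium and long chains, was at 288 ± 16.2 CPM (SD, n = 6) and 258 ± 14.9 CPM (SD, n = 7) in Ctrl and cKO males, with -0.16 (adjusted p = 0.132 by edgeR, SE 0.050), and had -0.064 (adjusted p = 0.975 by edgeR, SE 0.050) in females. All 3 genes were below 0 in both sexes, and none was called.

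Acot1 and Acot2 are close relatives on the same chromosome, and what they share is shown because it limits what a read can tell. The longest run of letters common to both coding sequences is 273 bases (positions 887 to 1159 of 1257 in Acot1 and 1010 to 1282 of 1359 in Acot2, counted from the start codon, GENCODE M21).
Acot1 and Acot2: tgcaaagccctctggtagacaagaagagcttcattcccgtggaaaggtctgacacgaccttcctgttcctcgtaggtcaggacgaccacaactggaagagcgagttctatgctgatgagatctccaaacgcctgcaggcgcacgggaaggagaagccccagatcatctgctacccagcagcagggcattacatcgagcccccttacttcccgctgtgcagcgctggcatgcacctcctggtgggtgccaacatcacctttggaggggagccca
A read that lies within it names neither gene. Of 50-base windows, 19% of Acot1 and 27.7% of Acot2 are shared with other genes, chiefly each other. Both levels are therefore uncertain. Per kb, Acot2 was at 23.8 CPM in cKO males and 35.4 in Ctrl females, the lowest and highest group means, and Acot1 at 1.09 and 2.66.

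Regulators of fuel choice included 2 of the 3 genes that varied most between mice of a group. Pdk4, the kinase that shuts off pyruvate dehydrogenase and so spares glucose, was at 172 to 447 CPM (median 299) in Ctrl males and 238 to 608 CPM (median 414) in cKO males. The ranges overlapped, 6 of 7 cKO males were above the Ctrl mean, and the log2 fold change was 0.44 (adjusted p = 0.509 by edgeR, SE 0.27). In females it was at 289 to 661 CPM (median 479.6) in Ctrl and 253 to 736 CPM (median 441) in cKO, with 0.0081 (adjusted p = 1 by edgeR, SE 0.27), a value whose sign changed in 3 of 10 other settings and when any of 6 of the 13 females was left out. Ucp3, the muscle uncoupling protein, was at 13.6 to 29.8 CPM (median 25.5) in Ctrl males and 21.3 to 33.98 CPM (median 26.1) in cKO males, with 0.22 (adjusted p = 0.708 by edgeR, SE 0.20). Female Ucp3 was at 28.6 to 53.9 CPM (median 35.8) in Ctrl and 23.4 to 56.3 CPM (median 32.9) in cKO, with -0.096 (adjusted p = 0.99 by edgeR, SE 0.20).

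Mlycd, which degrades the Cpt1 inhibitor malonyl-CoA, was at 108 ± 12.8 CPM (SD, n = 6) and 93.9 ± 7.38 CPM (SD, n = 7) in Ctrl and cKO males, with -0.20 (adjusted p = 0.219 by edgeR, SE 0.074). Female levels of Mlycd were 111 ± 10.8 CPM and 104 ± 10.1 CPM (SD, n = 6 and 7), with -0.096 (adjusted p = 0.975 by edgeR, SE 0.074). Acacb, which makes malonyl-CoA, had log2 fold changes of -0.031 (adjusted p = 0.915 by edgeR, SE 0.083) in males and -0.044 (adjusted p = 0.987 by edgeR, SE 0.083) in females. Pnpla2, the first lipase of stored triglyceride, had -0.074 (adjusted p = 0.733 by edgeR, SE 0.074) and -0.054 (adjusted p = 0.985 by edgeR, SE 0.075). None of the 5 regulators was called.

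Females were then compared with males within each genotype. In controls, no member was called by edgeR or limma voom. DESeq2 called 2 (Cpt1a, adjusted p = 0.0284, and Ucp3, adjusted p = 0.0159). Over the whole table, edgeR called 98 genes (0.638%), DESeq2 253 and limma voom 104. At an unadjusted p under 0.05 there were 7 members higher in females and 1 lower, beside 12.1% of all genes in either direction. The nearest to the threshold were Cpt1a with a log2 difference (female minus male) of 0.29 (adjusted p = 0.0739 by edgeR, SE 0.077) and Ucp3 with 0.76 (adjusted p = 0.0946 by edgeR, SE 0.21), each higher in 6 of 6 Ctrl females than the male mean. In the knockouts, 7 members were called, all higher in females, which is 18.4% of the 38 beside 1.43% of all genes: Acaa2, Etfb, Slc27a1, Ech1, Eci1, Acot2 and Acot1. The median over the 38 was 0.15 in cKO and 0.046 in Ctrl mice, beside 0.0067 and 0.0039 over all genes. The comparison in cKO shares its mice with the knockout contrasts above, and the test of the difference between them is the interaction already given, which called no member.

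Among cKO mice, every female was above every male for Acaa2 (log2 0.33, adjusted p = 0.00727 by edgeR, SE 0.065) and Etfb (log2 0.25, adjusted p = 0.00774 by edgeR, SE 0.050), which held for 0.567% of all genes. Slc27a1 was at 132 to 193 CPM (median 159) in cKO females and 99.8 to 139 CPM (median 118) in cKO males, with 0.44 (adjusted p = 0.0223 by edgeR, SE 0.10). In controls it was at 127 to 188 CPM (median 169) in females and 102 to 172 CPM (median 130.5) in males, with 0.30 (adjusted p = 0.242 by edgeR, SE 0.11), which did not pass. Ech1 and Eci1 differed by 0.33 (adjusted p = 0.0277 by edgeR, SE 0.081) and 0.21 (adjusted p = 0.0284 by edgeR, SE 0.052). The thioesterases Acot2 and Acot1 differed by 0.48 (adjusted p = 0.0307 by edgeR, SE 0.12) and 1.11 (adjusted p = 0.035 by edgeR, SE 0.29), with all 7 cKO females above the cKO male mean for Acot1 and 6 of 7 for Acot2. The Acaa2 call held in each of the 36 other fits, and those of the other 6 genes were lost in 2 to 9 of them. Leaving out cKO female 4 left 2 calls. Of the cardiomyocyte markers, 2 of 10, Tnni3 and Myl2, were also called higher in cKO females, beside 1.43% of all genes. Of the 10, 8 were above 0 there and 2 below, Ttn (log2 -0.16) and Ryr2 (log2 -0.18). The 5 fat cell markers tested were all above 0 in both genotypes, with a median of 1.54 in cKO and 1.44 in Ctrl mice and none called. The part of both marker lists in these differences was not tested.

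How the members vary between mice of a group was described by the SD of log2 CPM around the group means. Its median over the 38 genes was 0.138, beside 0.190 over all genes tested. Acot1 (0.546), Pdk4 (0.506) and Ucp3 (0.374) had the largest SD of the set. The highest mouse of a group had 2.29 to 2.91 times the Pdk4 of the lowest, and 1.60 to 2.40 times the Ucp3.

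Pdk4 was correlated with genes known as PPARα targets over all 26 mice, after the group means were removed, and p was adjusted over the 7 relations computed, of which 6 are given. With Ucp3, Pearson's r was 0.671 (permutation adjusted p = 0.00294, 100000 resamples, two-sided) and Spearman's rho 0.621 (permutation adjusted p = 0.00854). With Angptl4, an inhibitor of lipoprotein lipase that is not among the 38, r was 0.748 (permutation adjusted p = 0.00035) and rho 0.679 (permutation adjusted p = 0.00651). Within the groups, r with Ucp3 was 0.703 in Ctrl males, 0.845 in cKO males, 0.772 in Ctrl females and 0.536 in cKO females, and with Angptl4 0.504, 0.602, 0.676 and 0.945 in the same order. Without the 2 mice farthest from the median of Pdk4, Ctrl male 4 and cKO female 2, r was 0.725 with Ucp3 and 0.717 with Angptl4. The unadjusted permutation p was 0.00084 for Ucp3 and 5e-05 for Angptl4.

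The other 4 genes given did not pass. Pearson's r of Pdk4 was -0.0682 with Acot1, 0.0670 with Acot2, 0.0922 with Cpt1a and 0.173 with Mlycd, and rho was -0.0803, 0.0790, 0.128 and 0.104. Permutation adjusted p lay between 0.744 and 0.762 for r, and was 0.716 for each rho. The sign of r with Acot1 differed between groups, from -0.557 in Ctrl males to 0.769 in Ctrl females.

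**Figure D5:**
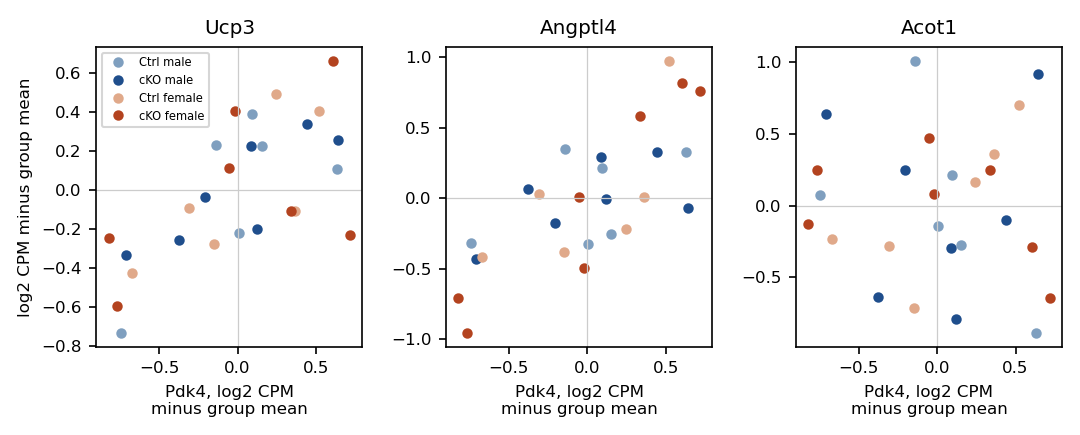
Log2 CPM of Ucp3, Angptl4 and Acot1 against that of Pdk4, each with its group mean removed, 1 dot per mouse and 26 in all, coloured by group. Ucp3 and Angptl4 run upward with Pdk4 (r of 0.67 and 0.75), and Acot1 has an r of -0.068.

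Other genes of fatty acid metabolism were read from the same fit. Of 53 listed, 51 were tested: 37 were below 0 in males and 36 in females (49.7% and 48.9% of all genes tested), with medians of -0.056 and -0.057. By edgeR none of these 51 was called in either sex (0.443% of all genes in males and 0.0326% in females). DESeq2 called 5 and limma voom 3 in males, all lower, and neither called any in females. Over the whole table, DESeq2 called 257 genes lower in males and limma voom 112. In females they called 9 and 4 genes in either direction. At an unadjusted p under 0.05 by edgeR there were 11 in males, which is 21.6% beside 13.2% of all genes, and 2 in females, which is 3.92% beside 5.15%. Averaged over the sexes, 4 fell (7.84%, beside 0.866% of all genes): Nudt7, a peroxisomal CoA diphosphatase (log2 -0.20, adjusted p = 0.0272 by edgeR, SE 0.045), Acat1, a thiolase of ketone and isoleucine breakdown (log2 -0.15, adjusted p = 0.0308 by edgeR, SE 0.036), Hsd17b10, a mitochondrial dehydrogenase of short and branched chains (log2 -0.16, adjusted p = 0.0308 by edgeR, SE 0.037), and Acot7, a cytosolic thioesterase (log2 -0.15, adjusted p = 0.0431 by edgeR, SE 0.037). With a length and GC offset, 1 of the 4 was past the threshold, Nudt7 (edgeR adjusted p = 0.0359). Between the sexes, edgeR called 1 of the 51 in controls (1.96%, beside 0.638% of all genes). In cKO mice it called 3 (5.88%, beside 2.7% of all genes), 2 higher and 1 lower in females. Plin4, a lipid droplet coat protein, was higher in Ctrl females (log2 0.63, adjusted p = 0.00339 by edgeR, SE 0.11). In cKO females Hsd17b10 was higher (log2 0.24, adjusted p = 0.00931 by edgeR, SE 0.050) and Etfrf1, a regulator of electron transfer flavoprotein, was lower (log2 -0.29, adjusted p = 0.0274 by edgeR, SE 0.072). Plin4 and Etfrf1 are named because of these values. Without both Ctrl males low in Ppp2r2a, 0 of the 51 were called between the sexes in controls, so the Plin4 call was lost. With the length and GC offset, alone or with the replicate block, 0 of the 51 were called lower in cKO females. The Etfrf1 call was therefore lost in both of those fits. The smallest p for the knockout in males belonged to Acat1 (log2 -0.21, adjusted p = 0.0505 by edgeR, SE 0.051) and Hsd17b10 (log2 -0.22, adjusted p = 0.0506 by edgeR, SE 0.052).

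The promoter windows of the set, from 250 bases before to 50 after the RefSeq start, were searched on both strands for letters known to bind transcription factors. Windows were given for 30 of the 38 genes (not Decr1, Acad9, Acaa2, Cpt1b, Fabp4, Lpl, Acot13 and Crat). The ERR element TCAAGGTCA was in none of the 30, beside 0.466% of all genes with a window, and the DR1 element, a pair of AGGTCA with 1 base between, in none, beside 0.0481%. The shorter half-site AAGGTCA, which is contained in the ERR element, was in 2 genes (6.67%), Acadm and Acacb, beside 5.38%. CCAAT was in 16 genes (53.3%), beside 41.1%, and the E-box CACGTG in 1 gene (3.33%), beside 8.09%. The half-site was added after the longer letters gave no match. These are counts of letters in short windows, in which a match is not a site and a missing match says nothing of a factor.

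The window of Acot2 is shown as that of a gene higher in cKO females, with CCAAT on the opposite strand (ATTGG) in capitals, 5′ to 3′ (GRCm38.p6, chr12:83987611-83987860, plus strand). It overlaps no annotated exon, and the match begins at position -244 relative to the start.
Acot2: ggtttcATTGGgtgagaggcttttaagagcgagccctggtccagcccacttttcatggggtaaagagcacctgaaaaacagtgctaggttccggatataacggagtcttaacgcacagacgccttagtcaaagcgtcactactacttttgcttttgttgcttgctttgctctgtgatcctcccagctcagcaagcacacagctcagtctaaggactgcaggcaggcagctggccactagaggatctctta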

How the data were processed

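Left ventricle RNA of 26 mice was sequenced as poly-A libraries. The authors deposited 1 table of raw read counts per gene, which per the submitters' processing notes involved FastQC 0.74, cutadapt 4.6, STAR 2.7.11a, HTSeq and the GRCm39 build. Which annotation was used and whether counting was by strand are not given in the sources used here. The members and lists were chosen with earlier results of these data known.

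Of 56941 genes, 15357 passed filterByExpr (minimum count 10). All 4 groups entered 1 fit with TMM scaling and edgeR 4.0.16's robust quasi-likelihood test (R 4.3.3), and p was adjusted by Benjamini-Hochberg over all 15357 genes, with a threshold of 0.05. Two-sided tests were used throughout. DESeq2 1.42.0, limma 3.58.1 voom, other filters, a length and GC offset, a replicate block and leaving out each mouse were the alternatives. The fit without both Ctrl males low in Ppp2r2a was added after seeing the data. The procedure was tested on simulated data. Within groups, no library repeated another (72 pairs), and pairs across groups were not compared.

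CPM was scaled by TMM, and CPM per kb used the longest transcript of GENCODE M21 (GRCm38), matched by gene ID for 15092 genes. Promoters came from RefSeq (GRCm38.p6). Correlations used log2 CPM (prior count 2) and 100000 permutations; 1 gene of the family is not reported here. Full values are given for members called in any comparison, for the member of smallest p in each role group in the knockout contrasts, and for Fabp4, Cd36, Cpt1b, Acadm, Pdk4, Ucp3, Acot1 and Acot2. A count of 3 corresponds to 0.0972 to 0.208 CPM. The precision of each value is set by the spread between mice. Replicates are separate mice per the labels.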

Additional observations from a re-analysis of the deposited data

Results flagged for a closer look

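In 152 sets of values (38 genes in 4 groups), 5 sets held a mouse far from the rest of its group by Dixon's criterion (3.29%; chance gives about 1 in 20). Ech1 was flagged in Ctrl male 5 at 1337 CPM, beside 904 to 1052 CPM in the other Ctrl males, and in Ctrl female 5 at 1377 CPM, beside 1086 to 1129 CPM in the other Ctrl females. Ctrl female 6 had the lowest Etfa, at 455 CPM beside 508 to 535 CPM, and the lowest Etfdh, at 541 CPM beside 615 to 643 CPM. Without Ctrl female 6 the mean effect called 10 of the 38 genes in place of 5, and the male contrast 5 in place of 3, while over all genes tested the counts rose alike, from 205 to 349 and from 68 to 122. Acad11 in cKO female 2 was at 160.0 CPM, beside 214 to 251 CPM in the other cKO females.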

How the results depend on the processing

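In males, the 3 called genes were 10 with DESeq2, 5 with a filter of at least 5 CPM on average, 1 with a length and GC offset, 1 with that offset and the replicate block, and 7 at an adjusted p under 0.1. Leaving out 1 mouse gave 1 to 5, with 1 (Eci1) without Ctrl male 4 or 5 or cKO male 2, 5 or 6, and 5 without Ctrl female 6 or cKO female 2. The mean effect called 13 with DESeq2, 3 with the length and GC offset, 2 with that offset and the block, 8 without both Ctrl males low in Ppp2r2a, 10 at an adjusted p under 0.1, and 2 to 10 with 1 mouse left out (10 without Ctrl female 6). Over the whole table, its 205 calls were 549 with DESeq2, 163 with the offset and 125 with offset and block. They were 249 without both Ctrl males, 487 at an adjusted p under 0.1 and 349 without Ctrl female 6. Female calls and calls of the difference between the sexes stayed at 0 in every setting and leave-1-out fit. Between the sexes in controls, DESeq2 called 2, an adjusted p under 0.1 gave 2, and leaving out 1 mouse gave 0 to 1 (1 without Ctrl male 1). Over the whole table, DESeq2 called 253 genes there and an adjusted p under 0.1 gave 225. In cKO mice, the 414 calls over the whole table were 244 with no filter, 327 with the offset and 209 with offset and block. Of the members, the 7 calls in cKO mice were 3 with no filter, 4 with the length and GC offset, 2 with that offset and the block, and 2 to 9 with 1 mouse left out (2 without cKO female 4). There the calls were lost without cKO male 6 or cKO female 4 for Slc27a1 (adjusted p 0.0501 and 0.0573), cKO male 1, 2 or 7 or cKO female 2 or 4 for Eci1, cKO male 1, 2, 5 or 7 or cKO female 2, 3 or 4 for Ech1, cKO male 1, 2, 6 or 7 or cKO female 3, 4 or 7 for Acot1, and cKO male 2, 6 or 7 or cKO female 3, 4 or 6 for Acot2 (adjusted p up to 0.105 over all alternatives). The cause of these changes was not tested.

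Signs changed for values near 0. In females, Slc27a1 was 0.015 by limma voom, and Pdk4 was -0.14 by limma voom, -0.080 with the replicate block and -0.083 with the offset and block. With 1 mouse left out, the female log2 fold changes ran from -0.081 to 0.010 for Cd36, -0.086 to 0.020 for Slc27a1, -0.063 to 0.022 for Ech1, -0.12 to 0.12 for Pdk4 and -0.23 to 0.016 for Ucp3, and the mean effects from -0.067 to 0.0068 for Fabp4 and -0.0053 to 0.12 for Ucp3. Pearson's r of Pdk4 with Acot1 was 0.0382 without the 2 mice farthest from the median and 0.325 with the block. The number of members below 0 was 34 to 35 in males and 29 to 37 in females over all 37 fits.

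Over the whole table, the 68 genes called in males were 399 with DESeq2, 188 with limma voom, 164 with the CPM filter, 304 at an adjusted p under 0.1, 31 with no filter, 15 with the offset, 17 with offset and block, 7 without both Ctrl males low in Ppp2r2a, and 4 to 122 with 1 mouse left out (4 without Ctrl male 5). The female count of 5 ran from 1 to 9, the mean effect's 205 from 96 (without Ctrl male 5) to 549, and the sex contrasts' 98 and 414 from 40 to 253 and from 163 (without cKO female 4) to 880. Same-numbered mice of the 2 genotypes had a mean r of deviations of -0.0259 in males, where 0 of 6 pairs were over 0.1, and 0.118 in females, where 3 of 6 were (up to 0.404), and 1 of 6 and 2 of 6 controls were closest to their own number. Differently numbered pairs had a mean r of 0.0043 in males and -0.0186 in females. The highest r among differently numbered females was 0.205, beside 0.404 and 0.276 in 2 same-numbered pairs. Not every same-numbered pair was over 0.1, so the numbers were not treated as pairing the mice. Whether some of the numbers pair mice was not tested. The replicate block joined equal numbers over all 4 groups, not within each sex. The replicate block put the mean effect of Acaa2 at -0.17 (edgeR adjusted p = 0.0783) and of Etfdh at -0.17 (edgeR adjusted p = 0.0517), both past the threshold before, and it called that of Acot13, not past it before. It changed no other call of a named member's mean effect. Of the 4 other pathway genes with a called mean effect, Nudt7 stayed past the threshold with the block, and the edgeR adjusted p was 0.0830 for Acat1, 0.0950 for Acot7 and 0.0517 for Hsd17b10. Acot1 had the fewest counts of the members, 37 in 1 library, and how far depth limits its precision was not tested.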
